A study of Mus musculus with 16 samples.

Results

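Solute carriers are the membrane proteins that move small molecules into and out of cells and between compartments of the cell, and the mouse genome groups them in numbered families (symbols that begin with Slc). Some exchange one substrate for another, some use the sodium or proton gradient, and some form pores that let a substrate run down its own gradient. Because cells take up amino acids, sugars, phosphate, sulphate and metals through them, their levels bear on the nutrient supply of tumours as well as of pigment cells, skin epithelium and macrophages. The members described here are all genes whose single symbol in the probe annotation has the form Slc, a number, the letter a and a number, with Slc45a2 and Slc2a1 left out by that rule. They are 236 of 12393 genes, they belong to 48 families, and each is read from 1 probe set, the one with the highest mean over the 16 arrays. They were sorted by substrate into 13 classes, the largest being inorganic ions (38 members), amino acids and peptides (37), mitochondrial carriers (33), organic ions (27) and transition metals and haem (24).

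RNA of 3 groups was hybridised to Affymetrix mouse expression arrays. The iMet group (6 arrays) is melanoma of Tyr-rtTA;Tet-Met;Ink4a/Arf-/- mice, in which a tetracycline-controlled MET receptor is switched on through an activator under the tyrosinase promoter of pigment cells. The iHRAS* group (6 arrays, titled iRas) is melanoma of Tyr-rtTA;Tet-HRASV12G;Ink4a/Arf-/- mice, which carry a mutant HRAS transgene under the same control and lack the same tumour suppressor locus. The third group (4 arrays) is labelled melanocytes isolated from mouse, with no disease and no genotype given. The design text speaks of RNA from cutaneous melanomas and the labels of melanoma cells isolated from them, and ages were not given in the sources used here. Nothing in the labels says that the arrays of a group came from separate animals or cultures, so p-values measure only the spread between these samples, which may be technical.

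The labelled cell types were checked against their markers before any carrier was read. The pigment genes Tyr, Tyrp1 and Dct lay below the dim level (log2 signal 6.21, the 40th percentile of all signals) on all 6 iMet arrays, on 4 or more of the 6 iHRAS* arrays and on all 4 melanocyte arrays. Of 10 melanocyte markers, 2 were over that level on every iMet array, 3 on every iHRAS* array and 3 on every melanocyte array. Pmel was over it on every iHRAS* and melanocyte array and on no iMet array. Slc45a2 was over it on all arrays, and Mitf on 6 iMet, 5 iHRAS* and 0 melanocyte arrays. Sox10, a transcription factor of the pigment and Schwann cell lineages, ranged from 6.08 to 7.66 on iMet arrays, from 9.45 to 11.44 on iHRAS* arrays and from 9.04 to 10.41 on melanocyte arrays, where the basal keratin gene Krt14 also reached 11.54 to 13.49. Of 12 keratinocyte markers, 8 were over the dim level on every melanocyte array, while Krt1, Cdh1 and Epcam were dim on all 4. The mean of 12 macrophage markers ranged from 9.32 to 9.97 in iMet, 7.68 to 9.52 in iHRAS* and 4.14 to 4.65 in melanocytes, and that of 12 endothelial markers from 7.22 to 9.06, 6.67 to 7.76 and 3.93 to 5.04. The mean of 12 keratinocyte markers ranged from 4.54 to 9.09 in iMet, 8.59 to 10.64 in iHRAS* and 6.51 to 9.24 in melanocytes, and that of 9 Schwann cell markers from 4.92 to 5.71, 8.13 to 9.01 and 7.71 to 8.74. Means of 10 fibroblast markers were 11.57 in iMet, 11.77 in iHRAS* and 9.44 in melanocytes, and of 6 mast cell markers 6.85, 7.90 and 4.63. The melanocyte arrays fell in pairs, 1 and 3 against 2 and 4. On arrays 1 to 4 the keratinocyte mean was 7.44, 9.24, 6.51 and 9.02. The fibroblast mean was 10.24, 8.60, 11.06 and 7.87, and Krt15 gave 2.38, 10.74, 2.57 and 11.13. The labels do not explain the pairs, and the fits count these arrays as 4 separate samples. The tumours are bulk samples for this purpose: fewer cells of a type and less RNA per cell cannot be told apart, and the part of these cell type markers in the carrier results was not tested except where a fit with 2 of them is given.

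Similar numbers of carriers lay over the dim level in each group. Quantile normalization puts about the same share of probe sets over that level on every array, so these counts cannot compare expression between groups. The signal was over the dim level on every array for 103 of 236 members in iMet (6 arrays), 104 in iHRAS* (6 arrays) and 102 in melanocytes (4 arrays), and on no array for 102, 86 and 99 members. Across all 16 arrays 90 members were over that level everywhere and 74 nowhere. The filter on dim signal left 120 members to be tested between the tumour models and 133 in each comparison with melanocytes. Since a member can pass the filter through the group where it is high, the counts that follow describe the members tested and not the whole set.

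Between the tumour models more carriers were lower than higher in iMet. By limma with Benjamini-Hochberg adjustment over all 8058 genes tested, 7 of 120 carriers were higher in iMet than in iHRAS* (5.83%, against 11.2% of all genes) and 20 were lower (16.7%, against 9.7% of all genes). The 7 higher calls were 3 without array iMet 1 and 4 without iMet 3, iMet 4 or iHRAS* 4. In either direction 27 were called, beside 20.9% of all genes. The median difference, iMet minus iHRAS*, was -0.15 on the log2 scale over the carriers and 0.03 over all genes tested. The ranges of the groups did not overlap for 15 carriers, 12.5% of those tested, against 10.7% of all genes. The split moved with the scaling of the arrays, as did that of all genes. Without quantile normalization, where the median of all genes lay at 0.23, 12 carriers were higher and 10 lower (9.84% and 8.2%, against 22% and 5.48% of all genes). With arrays centred on their medians 4 were higher and 17 lower (3.31% and 14%, against 10.1% and 7.86%). With the marker means of keratinocytes and endothelium added as 2 covariates, 1 carrier stayed higher (Slc1a4) and 4 stayed lower (Slc22a23, Slc39a8, Slc26a2 and Slc20a2), while 108 of all genes were called higher and 135 lower. Of the 16 named calls lost in this fit, 7 had a difference at least as large as without the covariates, such as Slc14a1 (-6.42, adjusted p = 0.0676), Slc30a5 (0.83, adjusted p = 0.0697) and Slc35a1 (-1.21, adjusted p = 0.0959).

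**Figure D1:**
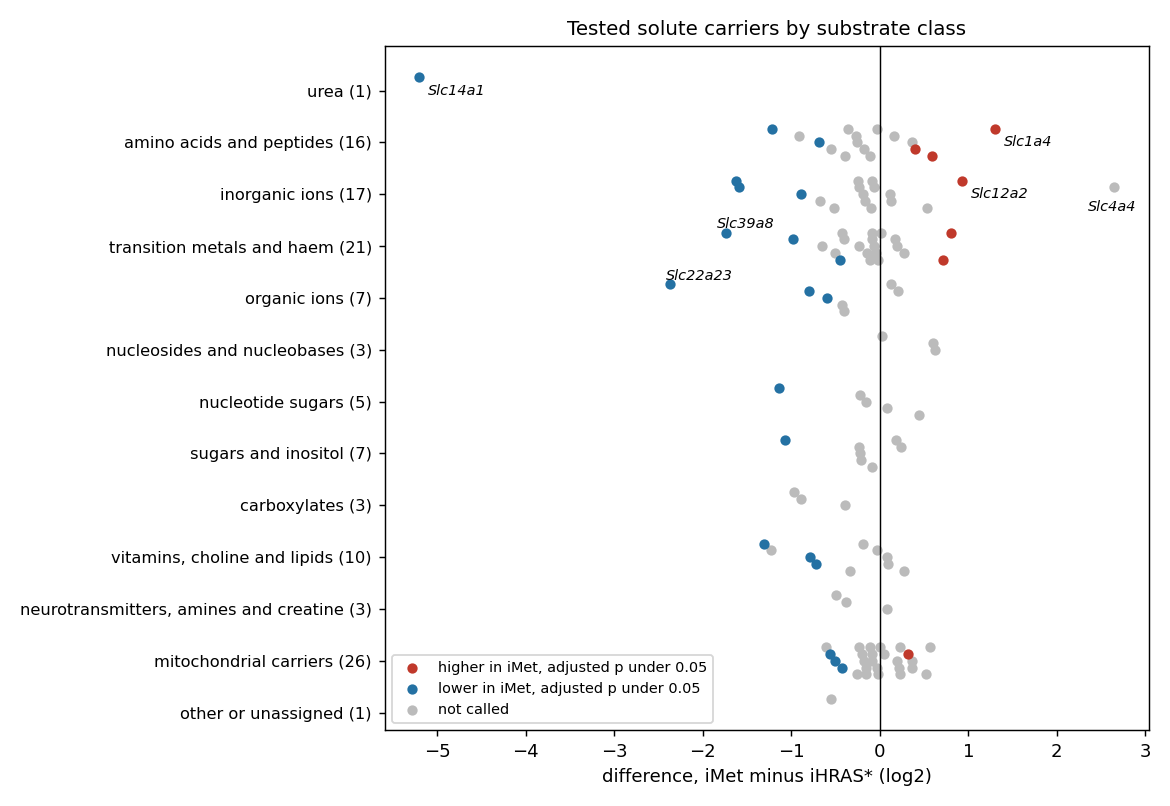
Difference in log2 signal, iMet minus iHRAS*, for each of the 120 tested carriers (points), by substrate class with the number tested in parentheses. Points are coloured where the adjusted p was under 0.05. Slc14a1 stands at -5.20, and 20 of the 27 called carriers lie left of 0. Slc4a4, at 2.65, was not called.

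The urea carrier gene Slc14a1 differed most between the models. It encodes the facilitative urea channel known from red blood cells and from the small vessels of the kidney medulla. Its log2 signal was lowest at 3.33, had a median of 5.73 and was highest at 10.62 in iMet, against 11.29, 11.56 and 12.68 in iHRAS*, while the melanocyte arrays gave 3.22, 6.64, 3.25 and 7.03. All 6 iHRAS* arrays were high and close together, whereas the iMet arrays spread widely: 3 of them lay below the dim level and 2, iMet 4 and iMet 5, lay above 9. The difference, iMet minus iHRAS*, was -5.20 ± 1.07 (SE, limma, adjusted p = 0.00548), a fitted value that includes the dim arrays. With the 3 dim arrays raised to the dim level, iMet was at least 19-fold lower. Slc14a1 was 6.74 ± 1.23 higher in iHRAS* than in melanocytes (adjusted p = 0.000716; at least 38-fold with the 2 dim melanocyte arrays raised to the dim level), and in iMet the difference from melanocytes was 1.53 ± 1.23 (adjusted p = 0.353). A further probe set of the gene gave -4.60 between the models. The other urea carrier gene, Slc14a2, lay near the dim level in every group, between 5.78 and 6.38 in iMet, 5.17 and 6.84 in iHRAS* and 6.00 and 6.68 in melanocytes. On the melanocyte arrays the Slc14a1 signal fell in the same pairs as the markers above, with arrays 1 and 3 low and arrays 2 and 4 higher. The red blood cell marker Alas2, which makes haem in red cell precursors, ranged from 7.15 to 11.45 in iMet, 5.10 to 7.74 in iHRAS* and 2.89 to 3.40 in melanocytes. Within iMet it was 9.16 and 10.59 on arrays 4 and 5, where Slc14a1 was above 9, and highest, at 11.45, on array 6. The other listed red cell markers, Hba-a1 and Epb42, were dim on every array. Whether red cells carry any of the Slc14a1 signal was not tested.

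**Figure D2:**
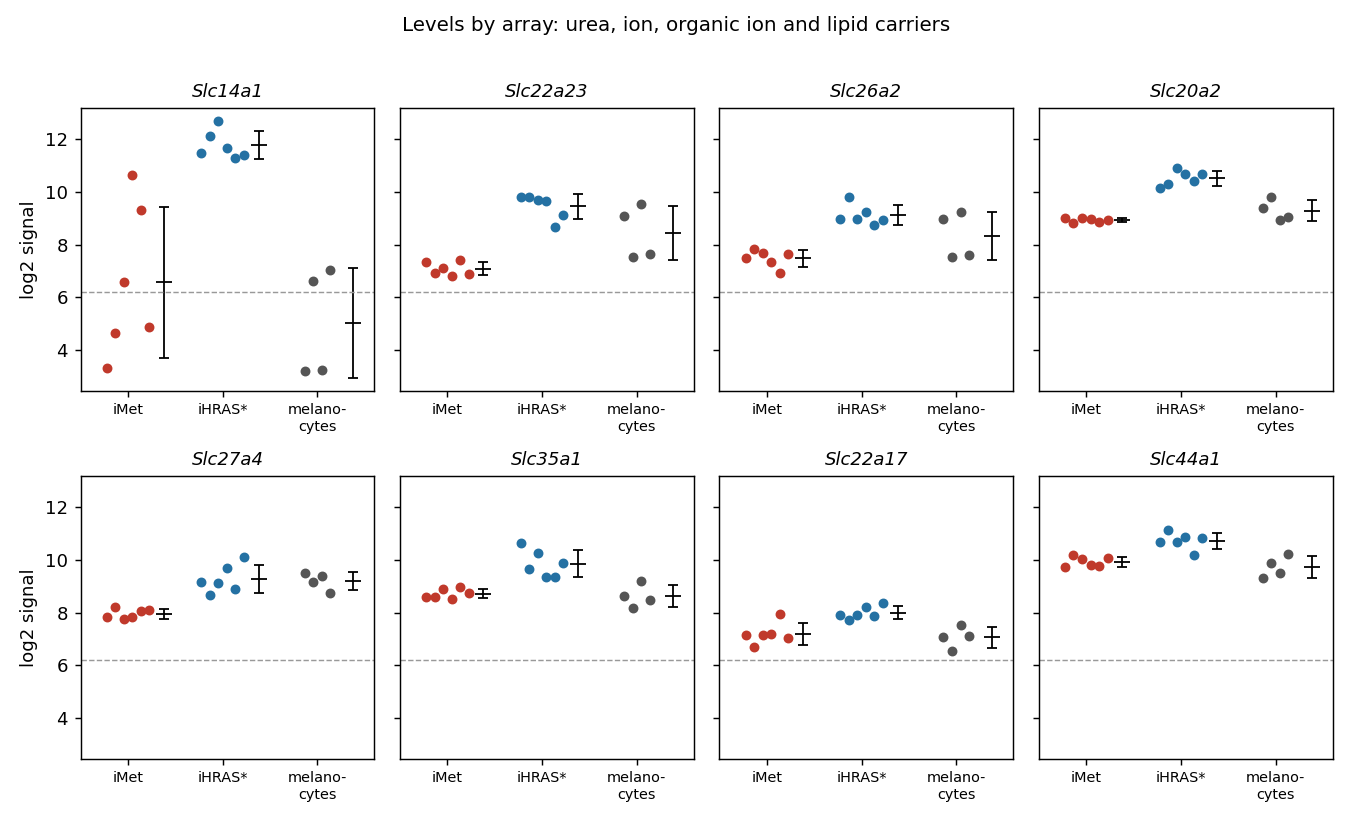
Log2 signal on each array (points) for 8 carriers lower in iMet than in iHRAS*, with the mean and SD of each group beside the points, in 6 iMet, 6 iHRAS* and 4 melanocyte arrays. The dashed line is the dim level, 6.21. For Slc14a1 the iMet arrays run from 3.33 to 10.62 and the iHRAS* arrays from 11.29 to 12.68; Slc22a23 and Slc26a2 split the melanocyte arrays in pairs.

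Amino acid and peptide carriers were the class with most members higher in iMet than in iHRAS*: 3 of 16 tested were higher and 2 lower (18.8% and 12.5%, against 11.2% and 9.7% of all genes). Slc1a4, an exchanger of small neutral amino acids such as serine, alanine and cysteine, was lowest at 7.19, had a median of 7.81 and was highest at 8.54 in iMet, against 6.41, 6.46 and 6.74 in iHRAS*, and gave 8.46, 8.70, 8.39 and 8.11 in melanocytes. The groups of tumours did not overlap, and all melanocyte arrays lay above the iMet median. Slc1a4 was 1.31 ± 0.19 higher in iMet than in iHRAS* (SE, limma, adjusted p = 0.00068; 2.47-fold) and lower in iHRAS* than in melanocytes, with a difference of -1.90 ± 0.20 (adjusted p = 6.78e-06). Its difference of -0.60 between iMet and melanocytes was called (adjusted p = 0.0313), but not without any 1 of iMet arrays 3, 4 and 5 or melanocyte arrays 1, 2 and 3 (adjusted p from 0.0551 to 0.102). Slc38a2, a sodium-coupled importer of glutamine and other neutral amino acids, averaged 11.20 ± 0.22 in iMet and 10.81 ± 0.10 in iHRAS* (SD, n = 6 each; adjusted p = 0.0256). Slc7a6, the light chain of an exchanger of basic for neutral amino acids, averaged 8.49 ± 0.24 in iMet and 7.90 ± 0.28 in iHRAS* (SD, n = 6 each; adjusted p = 0.0164). The 2 carriers lower in iMet were Slc15a2, a proton-coupled importer of small peptides (difference -1.22 ± 0.28, adjusted p = 0.009), and Slc6a17, a neutral amino acid carrier of synaptic vesicles (-0.69 ± 0.18, adjusted p = 0.0197). On the deposited scale the adjusted p of Slc6a17 was 0.128, and it lay only just over the dim level in iMet, between 6.13 and 6.59.

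Against melanocytes both tumour models had lower signal for the large neutral amino acid exchanger and higher signal for Slc7a7 and Slc15a3. Slc7a5 is the light chain and Slc3a2 the shared heavy chain of the exchanger that imports leucine and other large neutral amino acids. Slc7a5 was lowest at 8.62, had a median of 9.30 and was highest at 9.48 in iMet, against 8.85, 9.46 and 9.91 in iHRAS*, and gave 10.57, 10.62, 10.56 and 10.55 in melanocytes. Every tumour array lay below every melanocyte array, and the tumour models overlapped. The difference from melanocytes was -1.35 ± 0.21 in iMet (SE, limma, adjusted p = 0.000216) and -1.16 ± 0.21 in iHRAS* (adjusted p = 0.000626). Slc3a2 averaged 10.67 ± 0.28 in iMet and 10.51 ± 0.33 in iHRAS* (SD, n = 6 each), against 11.48 ± 0.14 in melanocytes (n = 4), with differences of -0.81 (adjusted p = 0.00307) and -0.97 (adjusted p = 0.000804). Slc7a6, which pairs with the same heavy chain, was lower in iHRAS*, with a difference of -1.01 ± 0.16 (adjusted p = 0.000209). In iMet its difference of -0.42 had an adjusted p of 0.0492 and passed no more without any 1 of 5 iMet arrays (1, 2, 3, 5 and 6), or of the melanocyte arrays, where adjusted p ranged up to 0.119. The cystine exchanger gene Slc7a11 and the small neutral amino acid exchanger gene Slc7a10, other partners of Slc3a2, lay below the dim level on every array and were not tested.

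Slc7a7, by contrast, was higher in both models. It encodes a light chain of the same heavy chain that exports basic amino acids from gut, kidney and macrophages. Its log2 signal was lowest at 7.81, had a median of 8.16 and was highest at 8.97 in iMet, against 7.84, 8.25 and 8.58 in iHRAS*, and gave 5.79, 5.22, 5.68 and 5.26 in melanocytes, all 4 below the dim level. The difference from melanocytes was 2.73 ± 0.21 in iMet (SE, limma, adjusted p = 2.98e-07) and 2.75 ± 0.21 in iHRAS* (adjusted p = 3.82e-07). Set against the dim level rather than the melanocyte signal itself, the tumours were at least 4.01-fold and 4.09-fold higher. Slc15a3, a peptide and histidine carrier of lysosomes in immune cells, was lowest at 6.45, had a median of 6.83 and was highest at 7.55 in iMet, against 4.92, 7.67 and 9.26 in iHRAS*, and gave 1.42, 1.77, 1.56 and 1.56 in melanocytes. Its fitted differences of 5.31 and 5.70 (adjusted p = 1.68e-05 and 8.84e-06) rest on melanocyte signals far under the dim level, and against that level the tumours were at least 1.6-fold and 2.09-fold higher. All 11 tested macrophage markers of 12 were higher in each tumour model than in melanocytes, where 16.4% (iMet) and 18.1% (iHRAS*) of all genes were higher. C1qa stood at 12.09 to 12.87 in iMet, 10.47 to 12.55 in iHRAS* and 1.43 to 2.66 in melanocytes. The marker not tested, Marco, was dim on every array. Slc15a4, of the same family as Slc15a3, was not higher: it differed from melanocytes by -0.66 in iMet and -0.30 in iHRAS*. Whether macrophages carry the Slc7a7 and Slc15a3 signal was not tested. Slc1a5, a sodium-dependent glutamine exchanger, averaged 8.17 ± 0.35 in iMet and 7.81 ± 0.10 in iHRAS* (SD, n = 6 each), against 6.91 ± 0.39 in melanocytes (n = 4), and was higher in both (1.26 and 0.90, adjusted p = 0.000159 and 0.00187). Of the 17 amino acid and peptide carriers tested, 3 were higher and 5 lower in iMet than in melanocytes, and 5 were higher and 4 lower in iHRAS* than in melanocytes. In iMet these are 17.6% and 29.4%, against 16.4% and 18.7% of all genes, and in iHRAS* 29.4% and 23.5%, against 18.1% and 21.3%.

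**Figure D3:**
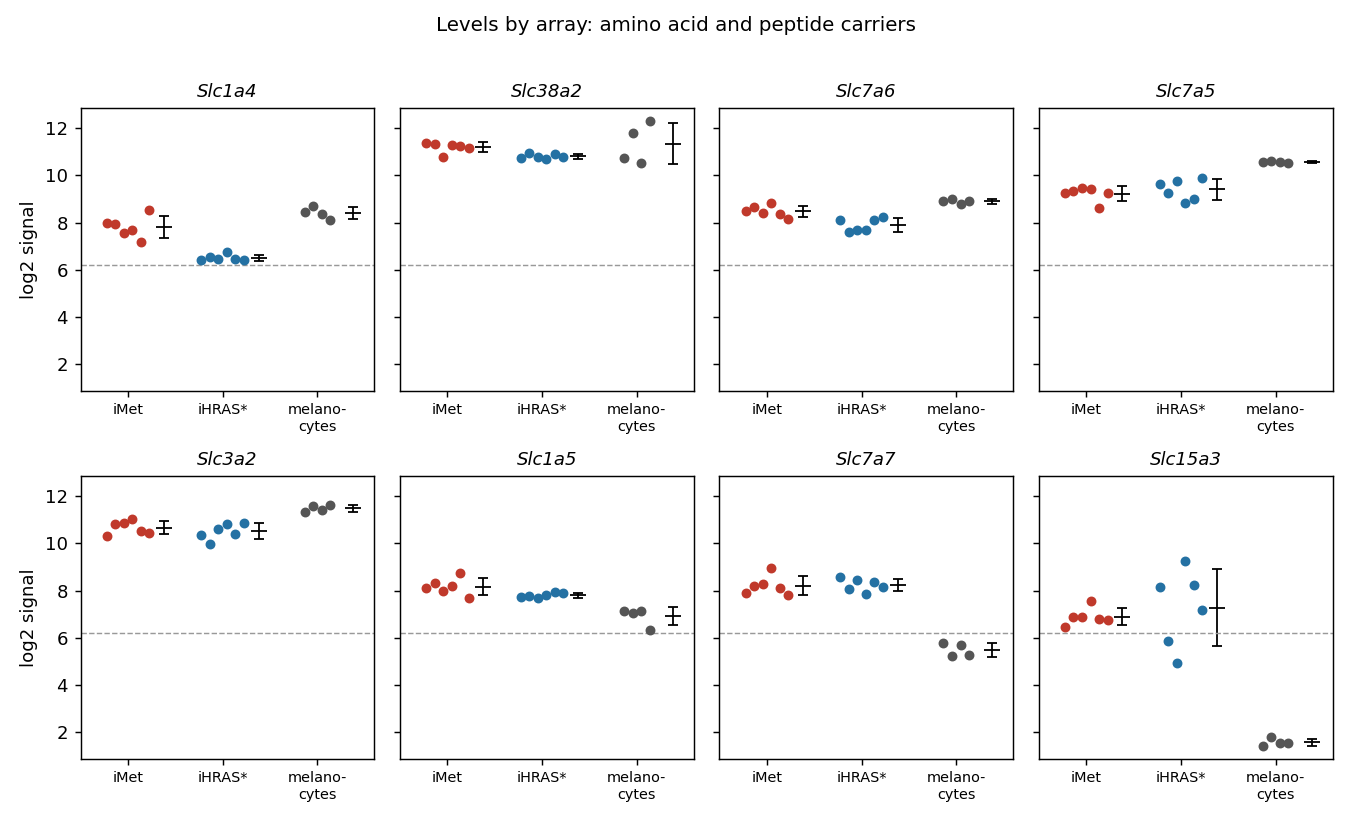
Log2 signal on each array (points) for 8 amino acid and peptide carriers, with the mean and SD of each group beside the points, in 6 iMet, 6 iHRAS* and 4 melanocyte arrays. The dashed line is the dim level, 6.21. Slc7a5 and Slc3a2 lie lower on every tumour array than on the melanocyte arrays, Slc7a7 and Slc15a3 higher, and Slc1a4 separates iMet (7.19 to 8.54) from iHRAS* (6.41 to 6.74).

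Slc1a4, Slc7a5 and Slc3a2 are among the known targets of ATF4, the transcription factor of the amino acid response. Other genes of that response are therefore given beside them, in a list that holds no carriers. Not all amino acid carriers were lower in the tumours than in melanocytes. Slc1a5 was higher in iMet and in iHRAS* (1.26 and 0.90), and Slc7a11 was dim on every array. Of a list of 20 such genes, 1 was higher and 11 were lower in iMet than in melanocytes, and 0 were higher and 11 lower in iHRAS* than in melanocytes, where the shares over all genes were 16.4% and 18.7%, and 18.1% and 21.3%. Asns, asparagine synthetase, differed by -1.91 in iMet (adjusted p = 5.97e-06) and by -1.67 in iHRAS* (adjusted p = 2.2e-05), and Chac1, which degrades glutathione, by -2.34 and -2.77 (adjusted p = 1.88e-05 and 4.45e-06). Between the tumour models 2 of 18 tested were higher in iMet and 0 lower (11.1% higher, the background being 11.2%): Phgdh, the entry enzyme of serine synthesis (1.19, adjusted p = 4.6e-05), and Shmt2, the mitochondrial serine hydroxymethyltransferase (0.49, adjusted p = 0.0159).

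The promoters of 2 of these carriers are shown because they hold the letters to which ATF4 and its partners of the C/EBP family are known to bind, TGATGNAA on either strand. RefSeq promoter windows (GRCm38.p6, 250 bases before to 50 after the start) were at hand for 182 of the 236 carriers, with 245 windows in all. The motif was found in 8 of those windows (3.27%, against 3.97% of all 32851 promoter windows), 5 of them among the 35 windows of 25 amino acid and peptide carriers, namely those of Slc1a4, Slc7a7, Slc7a11 and Slc15a5. Among 18 genes of the amino acid response with a window, 8 held it, Asns, Chac1 and Trib3 included. Slc7a7, which was higher in the tumours, holds the motif as well as Slc1a4, which was lower, and the windows of Slc3a2 and Slc7a6 do not hold these letters. Capitals mark the motif. The Slc1a4 window is chr11:20332664-20332963 on the minus strand, and the Slc7a7 window, 1 of 2 that hold the motif among its 5, is chr14:54417895-54418194 on the minus strand.
Slc1a4: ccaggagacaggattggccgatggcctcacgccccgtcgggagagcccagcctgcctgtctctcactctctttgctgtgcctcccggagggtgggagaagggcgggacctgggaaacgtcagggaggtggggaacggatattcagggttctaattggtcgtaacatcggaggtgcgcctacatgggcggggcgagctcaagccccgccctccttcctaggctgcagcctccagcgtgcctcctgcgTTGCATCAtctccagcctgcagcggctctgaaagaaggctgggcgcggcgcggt
Slc7a7: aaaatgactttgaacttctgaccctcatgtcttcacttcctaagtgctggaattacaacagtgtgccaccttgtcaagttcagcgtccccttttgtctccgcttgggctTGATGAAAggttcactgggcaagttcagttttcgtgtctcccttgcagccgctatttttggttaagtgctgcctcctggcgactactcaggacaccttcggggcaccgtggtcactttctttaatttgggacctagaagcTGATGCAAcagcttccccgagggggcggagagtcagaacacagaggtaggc

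Among the carriers of inorganic ions 1 of 17 tested was higher and 3 were lower in iMet than in iHRAS* (5.88% and 17.6%, against 11.2% and 9.7% of all genes). Slc20a2, a sodium-coupled phosphate importer, was lowest at 8.84, had a median of 8.94 and was highest at 9.02 in iMet, against 10.13, 10.54 and 10.92 in iHRAS*, and gave 9.38, 9.79, 8.93 and 9.03 in melanocytes. The iMet arrays were tightly grouped, and all iHRAS* arrays lay above all arrays of the other groups. Slc20a2 differed by -1.59 ± 0.13 between iMet and iHRAS* (SE, limma, adjusted p = 2.56e-05, 3-fold lower) and by 1.24 ± 0.17 between iHRAS* and melanocytes (adjusted p = 8.99e-05), while iMet differed from melanocytes by -0.35 ± 0.17 (adjusted p = 0.129). Slc26a2, the sulphate importer that feeds the sulphation of matrix proteoglycans, was lowest at 6.92, had a median of 7.57 and was highest at 7.84 in iMet, against 8.75, 8.97 and 9.81 in iHRAS*, and gave 8.97, 7.51, 9.25 and 7.60 in melanocytes. Melanocyte arrays 1 and 3 lay with iHRAS* and arrays 2 and 4 with iMet. The difference between the models was -1.62 ± 0.19 (adjusted p = 0.000256, 3.08-fold lower), and neither model passed the test against melanocytes (adjusted p = 0.0563 and 0.0684). Slc34a2, another sodium-coupled phosphate importer, was also lower in iMet (-0.89, adjusted p = 0.0254), and Slc12a2, the sodium, potassium and chloride cotransporter of secretory epithelia, was higher (0.93 ± 0.28, adjusted p = 0.0337), with overlapping groups of 8.65 to 10.22 in iMet and 7.90 to 9.50 in iHRAS*. The bicarbonate cotransporter gene Slc4a4 averaged 7.10 ± 0.53 in iMet and 4.45 ± 2.63 in iHRAS* (SD, n = 6 each), a difference that did not pass (adjusted p = 0.0745).

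Against melanocytes 0 inorganic ion carriers of 19 tested were higher and 4 were lower in iMet, and 3 were higher and 2 lower in iHRAS*; at an unadjusted p under 0.05 limma gave 7 and 9 in either direction. The lower calls in iMet are 21.1%, against 18.7% of all genes, and those in iHRAS* 15.8% higher and 10.5% lower, against 18.1% and 21.3%. The sodium, calcium and potassium exchanger gene Slc24a3 was the largest of the lower ones, with differences of -1.50 ± 0.44 in iMet (adjusted p = 0.0158) and -2.04 ± 0.44 in iHRAS* (adjusted p = 0.00228). Its melanocyte arrays gave 7.88, 9.32, 7.29 and 9.96, and without the higher arrays 2 and 4 the differences were -0.48 (adjusted p = 0.372) and -1.01 (adjusted p = 0.0613). Without melanocyte array 2 alone, or 4 alone, the iMet call was lost too (adjusted p = 0.0608 and 0.0619). Slc41a3, of the magnesium carrier family, was lower in both (-0.68 and -0.52, adjusted p = 0.00253 and 0.0121; in iHRAS* -0.39 without melanocyte arrays 2 and 4, adjusted p = 0.153). Of the sodium-potassium pump, whose gradient drives many of these carriers, 10 of 14 listed genes had a probe set. These were beta subunits and FXYD regulators, and no catalytic alpha subunit was read. Between iMet and iHRAS* 3 of 6 tested genes were lower in iMet and 0 higher (50% lower, against 9.7% of all genes), all of them FXYD regulators of the pump: Fxyd5 (-1.10), Fxyd3 (at least 4.8-fold lower, with 2 of 6 iMet arrays dim) and Fxyd2 (at least 2.31-fold lower, with 5 of 6 iMet arrays dim).

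Transition metal carriers were mostly on the arrays' readable range, with 21 of 24 tested, and 5 were called between the models (23.8%, against 20.9% of all genes), a share near the background. The ZIP family (Slc39a) moves zinc into the cytosol and the ZnT family (Slc30a) moves it out, to the Golgi, vesicles or the outside. The 2 that were higher in iMet belong to the ZnT family, and the 3 that were lower to the ZIP family. The other 16 tested metal carriers, the ZIP gene Slc39a14 among them, were not called, so no direction of either family is read from these 5. Slc39a8, a ZIP carrier of zinc and manganese, was lowest at 5.54, had a median of 5.72 and was highest at 6.59 in iMet, against 6.97, 7.52 and 8.37 in iHRAS*, and gave 4.60, 3.77, 3.38 and 1.49 in melanocytes. The 3 groups did not overlap, but 5 of 6 iMet arrays and all melanocyte arrays lay below the dim level. Slc39a8 differed by -1.74 ± 0.24 between iMet and iHRAS* (SE, limma, adjusted p = 0.000624), at least 2.52-fold lower with the 5 dim iMet arrays raised to the dim level, and by 4.30 ± 0.45 between iHRAS* and melanocytes (adjusted p = 6.48e-06), at least 2.63-fold when the dim level stands for the melanocytes. The fit also called it higher in iMet than in melanocytes (2.56, adjusted p = 0.000558), a difference between signals that are nearly all dim. Slc39a6, a ZIP importer known from oestrogen-responsive tissue, averaged 9.38 ± 0.25 in iMet and 10.36 ± 0.25 in iHRAS* (SD, n = 6 each; difference -0.98, adjusted p = 0.000923), against 10.90 ± 0.42 in melanocytes (n = 4). It was lower than in melanocytes in iMet (-1.52, adjusted p = 3.33e-05). In iHRAS* the call (-0.54, adjusted p = 0.0352) was lost without any 1 of iHRAS* arrays 2, 5 and 6 or melanocyte arrays 2 and 4 (adjusted p up to 0.125), and without both of those melanocyte arrays the difference was -0.19. Slc39a1, a ZIP importer of the cell surface, was lower in iMet than in iHRAS* (-0.45, adjusted p = 0.00752), though not on the values as deposited (-0.22, adjusted p = 0.239).

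Slc30a5, a ZnT carrier that loads zinc into the early secretory pathway, was lowest at 9.29, had a median of 9.54 and was highest at 9.71 in iMet, against 8.29, 8.79 and 8.90 in iHRAS*, and gave 8.81, 8.81, 8.89 and 8.78 in melanocytes. The iMet arrays lay above all others, and the iHRAS* and melanocyte arrays overlapped. Slc30a5 was 0.80 ± 0.13 higher in iMet than in iHRAS* (SE, limma, adjusted p = 0.00129) and 0.68 ± 0.13 higher than in melanocytes (adjusted p = 0.00104), whereas iHRAS* differed from melanocytes by -0.12 ± 0.13 (adjusted p = 0.489). Slc30a4, a ZnT carrier that fills vesicles with zinc, was also higher in iMet than in iHRAS* (0.72, adjusted p = 0.0224; 0.0528 without iMet 1 and 0.053 without iMet 3), and higher than in melanocytes in iMet (1.63, adjusted p = 0.00025) and in iHRAS* (0.91, adjusted p = 0.0117, but 0.0529 without melanocyte array 2, and 0.60 without arrays 2 and 4, adjusted p = 0.173). Slc39a14, a ZIP importer of zinc and iron induced in inflammation, averaged 9.79 ± 0.48 in iMet and 9.88 ± 0.49 in iHRAS* (SD, n = 6 each), against 8.24 ± 0.59 in melanocytes (n = 4), and was higher in both (1.55 and 1.64, adjusted p = 0.00147 and 0.000919). The melanocyte arrays of Slc39a14 gave 8.87, 7.82, 8.60 and 7.66, all below every tumour array. Slc11a1, the metal carrier of macrophage phagosomes, was higher in iMet (1.58, adjusted p = 0.00665) and in iHRAS* (1.41, adjusted p = 0.0113) than in melanocytes, as were the macrophage markers. In all, 6 of 21 tested metal carriers were higher and 4 lower in iMet than in melanocytes, and 5 were higher and 2 lower in iHRAS* than in melanocytes. In iMet these are 28.6% and 19%, against 16.4% and 18.7% of all genes, and in iHRAS* 23.8% and 9.52%, against 18.1% and 21.3%.

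**Figure D4:**
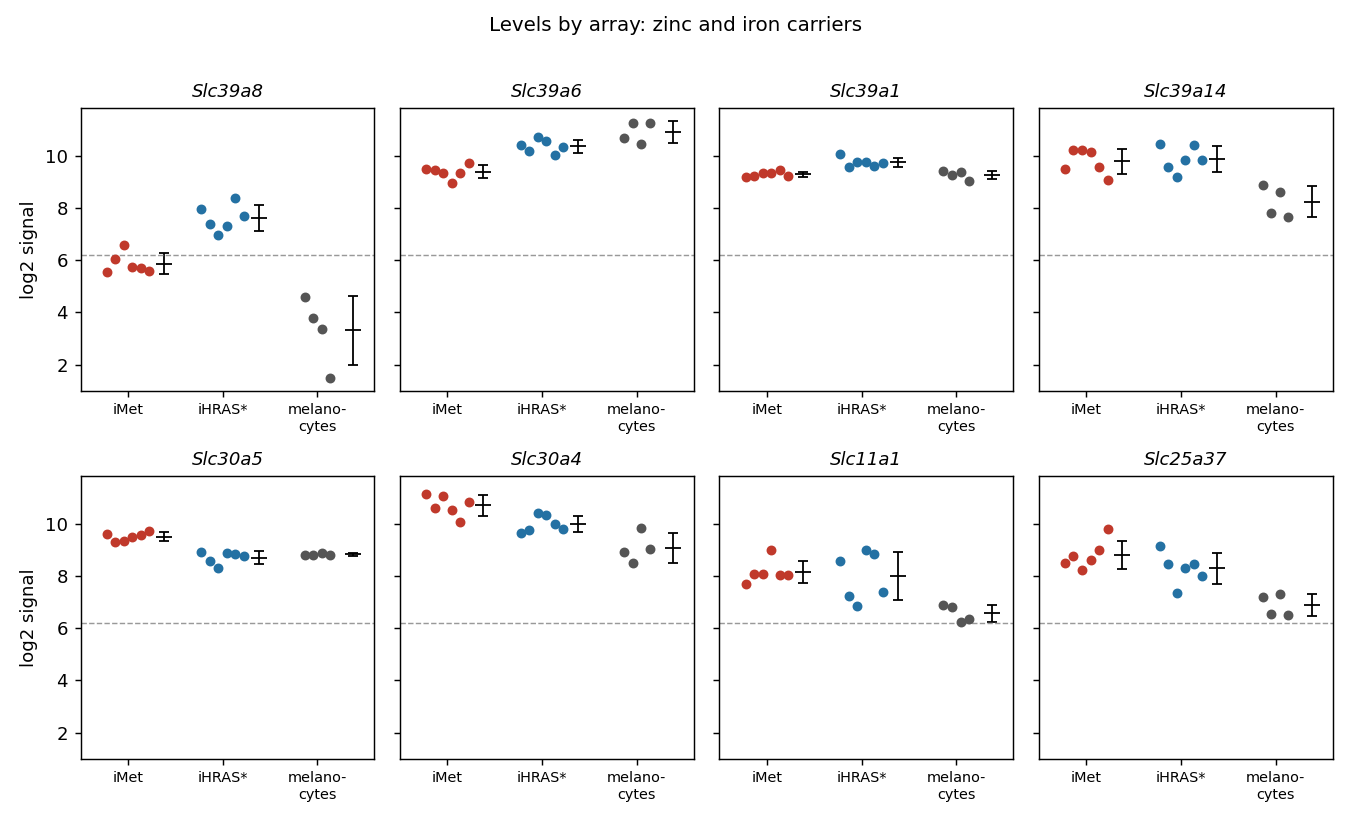
Log2 signal on each array (points) for 8 carriers of zinc and iron, with the mean and SD of each group beside the points, in 6 iMet, 6 iHRAS* and 4 melanocyte arrays. The dashed line is the dim level, 6.21. Slc30a5 is higher on all iMet arrays (9.29 to 9.71) than on the other arrays, and Slc39a8 lies mostly below the dim level outside iHRAS*.

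Of the 7 organic ion carriers tested, 0 were higher and 3 lower in iMet than in iHRAS* (42.9% lower, against 9.7% of all genes); limma gave the same 3 at an unadjusted p under 0.05. Slc22a23, an orphan member of the organic ion family whose substrate is not settled, was lowest at 6.81, had a median of 7.02 and was highest at 7.43 in iMet, against 8.65, 9.67 and 9.80 in iHRAS*, and gave 9.07, 7.53, 9.52 and 7.63 in melanocytes. The tumour groups stood well apart, and the melanocyte arrays split into a high pair (1 and 3) and a low pair (2 and 4). Slc22a23 differed by -2.36 ± 0.21 between iMet and iHRAS* (SE, limma, adjusted p = 3.67e-05), a 5.15-fold lower mean signal. Against melanocytes it was lower in iMet (-1.35, adjusted p = 0.00911) and higher in iHRAS* (1.02, adjusted p = 0.0344), the only carrier called in opposite directions. Without melanocyte arrays 1 and 3 the iMet difference was -0.49 (adjusted p = 0.224), and without arrays 2 and 4 the iHRAS* difference was 0.16 (adjusted p = 0.727). The iHRAS* call was also lost without any 1 of iHRAS* arrays 1, 2, 3 and 4 or melanocyte arrays 2 and 4 (adjusted p from 0.0547 to 0.141). Slc22a17, a receptor for the iron-binding protein lipocalin, was lower in iMet than in iHRAS* (-0.80, adjusted p = 0.0096), though on the values as deposited its adjusted p was 0.0782. Slc22a5, the sodium-coupled carnitine importer, was lower in iMet than in iHRAS* (-0.59, adjusted p = 0.00878), but the deposited values gave -0.34 (adjusted p = 0.146). Slc10a6, a carrier of sulphated steroids, was higher than in melanocytes in iMet (1.35, adjusted p = 0.00313) and in iHRAS* (1.14, adjusted p = 0.00764; 0.0801 without melanocyte arrays 1 and 3). The remaining members tested were Slc10a3, with differences from melanocytes of -0.48 in iMet (adjusted p = 0.105) and -0.60 in iHRAS* (adjusted p = 0.0416, lost without any 1 of 6 arrays), and Slc17a9, the vesicular ATP carrier, and Slc22a21, a carnitine carrier, which passed in no comparison.

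Organic anion carriers of the Slco family have no place in the symbol rule and are given beside the Slc22 and Slc10 members. Of 9 genes with a probe set, 2 were tested between the models and 3 against melanocytes, and the prostaglandin importer gene Slco2a1 was the only one called: -1.79 between iMet and iHRAS* (adjusted p = 0.00525), 2.05 between iMet and melanocytes (adjusted p = 0.0032) and 3.85 between iHRAS* and melanocytes (adjusted p = 2.09e-05). This is 50% of those tested between the models, against 20.9% of all genes. Against melanocytes it is 33.3% in each model, near the 35.1% (iMet) and 39.3% (iHRAS*) of all genes.

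The nucleoside and nucleobase carriers did not pass between the models: 0 of 3 were called, and 0 had an unadjusted p under 0.05 by limma. Slc29a1, the equilibrative nucleoside carrier of the cell surface, was lowest at 9.52, had a median of 10.16 and was highest at 11.26 in iMet, against 8.73, 9.71 and 10.36 in iHRAS*, and gave 7.80, 9.15, 7.56 and 7.77 in melanocytes. Melanocyte array 2 stood apart from the other 3 and within the range of iHRAS*. Slc29a1 was 2.13 ± 0.39 higher in iMet (SE, limma, adjusted p = 0.000849) and 1.53 ± 0.39 higher in iHRAS* (adjusted p = 0.00681; 1.14 without melanocyte arrays 1 and 3, adjusted p = 0.098) than in melanocytes. Slc43a3, a purine nucleobase carrier, was higher in iMet than in melanocytes (1.67, adjusted p = 0.00754), but 1.09 without melanocyte arrays 2 and 4 (adjusted p = 0.148), and did not pass in iHRAS* (1.04, adjusted p = 0.0647). Slc29a3, the nucleoside carrier of lysosomes, passed in neither comparison with melanocytes (-0.22 and -0.24, adjusted p = 0.485 and 0.425).

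A glucose importer and a lactate exporter were higher in both models than in melanocytes. Slc2a3, a high-affinity glucose importer, was lowest at 7.26, had a median of 7.60 and was highest at 8.73 in iMet, against 8.47, 8.83 and 9.32 in iHRAS*, and gave 5.29, 4.62, 4.95 and 5.28 in melanocytes, all below the dim level. It was higher than in melanocytes in iMet (2.78 ± 0.29, adjusted p = 5.86e-06) and in iHRAS* (3.86 ± 0.29, adjusted p = 3.41e-07), at least 3.05-fold and 6.42-fold against the dim level. Between the models it was lower in iMet (-1.07 ± 0.27, adjusted p = 0.0159), with an adjusted p of 0.0696 on the values as deposited and 0.0794 without iHRAS* arrays 5 and 6. Slc16a3, which exports lactate with a proton and is known as a gene induced under low oxygen, was lowest at 6.87, had a median of 8.29 and was highest at 10.72 in iMet, against 8.04, 9.38 and 12.10 in iHRAS*, and gave 5.61, 5.80, 6.52 and 5.66 in melanocytes. Every tumour array was above every melanocyte array, with a wide spread among tumours of each model. The difference from melanocytes was 2.86 ± 0.86 in iMet (adjusted p = 0.0177) and 3.74 ± 0.86 in iHRAS* (adjusted p = 0.00327). In iMet its adjusted p was 0.0692 without melanocyte arrays 1 and 3 and 0.113 without arrays 2 and 4. Slc16a1, the lactate carrier of most tissues, passed in no comparison, with 0.063 between the models as its smallest adjusted p. Bsg, the chaperone of both lactate carriers, was lower in iMet than in iHRAS* (-0.74, adjusted p = 0.0237) and than in melanocytes (-0.74, adjusted p = 0.0157), and the related chaperone gene Emb was higher in iMet than in melanocytes (0.78, adjusted p = 0.0231).

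The Slc16a3 promoter is shown because it holds the core letters of the hypoxia response element, ACGTG on either strand, in 2 places. These letters occur in 19.6% of all promoter windows and in 26.1% of the carriers' windows, so they are common. The window is chr11:120948817-120949116 on the plus strand (RefSeq, GRCm38.p6), with the motif in capitals.
Slc16a3: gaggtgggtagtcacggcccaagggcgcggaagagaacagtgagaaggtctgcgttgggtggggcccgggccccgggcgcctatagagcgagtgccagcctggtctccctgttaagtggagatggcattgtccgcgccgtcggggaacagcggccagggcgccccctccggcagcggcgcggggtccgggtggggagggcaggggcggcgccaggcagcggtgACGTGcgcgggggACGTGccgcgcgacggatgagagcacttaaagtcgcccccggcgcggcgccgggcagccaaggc

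Of 11 sugar and inositol carriers tested, 2 were higher and 2 lower in iMet than in melanocytes, and 2 were higher and 3 lower in iHRAS* than in melanocytes. The shares, 18.2% each way in iMet and 18.2% and 27.3% in iHRAS*, lie near those of all genes (16.4% and 18.7%, 18.1% and 21.3%). Slc37a2, a sugar phosphate exchanger of the endoplasmic reticulum abundant in macrophages, was the other higher one (differences of 2.32 in iMet and 2.09 in iHRAS*, adjusted p = 0.00137 and 0.00261), with all melanocyte arrays dim, between 3.96 and 5.15. Against the dim level the tumours were at least 1.68-fold higher in iMet and 1.43-fold higher in iHRAS*. Slc37a3, a relative of it, was lower in both (-0.81 and -0.57, adjusted p = 0.000109 and 0.00148), as was the glucose carrier gene Slc2a8 (-0.62 and -0.53, adjusted p = 0.0113 and 0.0218), though its iHRAS* call was lost without melanocyte array 3 (adjusted p = 0.073) and both its calls without arrays 1 and 3 (adjusted p = 0.0675 in iMet and 0.099 in iHRAS*). The fructose importer gene Slc2a5 was called lower in iHRAS* (adjusted p = 0.0106), where every array was dim. Against the dim level it was at least 2.09-fold lower, and without melanocyte arrays 2 and 4 its adjusted p was 0.172.

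Carriers of vitamins, choline and lipids gave 0 higher and 3 lower of 10 tested between iMet and iHRAS* (30% lower, against 9.7% of all genes), where limma gave 5 at an unadjusted p under 0.05. Slc27a4, which imports long-chain fatty acids and is needed for the skin barrier, was lowest at 7.75, had a median of 7.94 and was highest at 8.23 in iMet, against 8.66, 9.13 and 10.11 in iHRAS*, and gave 9.51, 9.16, 9.39 and 8.75 in melanocytes. All iMet arrays lay below all the others. Slc27a4 differed by -1.30 ± 0.22 between iMet and iHRAS* (SE, limma, adjusted p = 0.00184) and by -1.24 ± 0.24 between iMet and melanocytes (adjusted p = 0.00122), and iHRAS* differed from melanocytes by 0.06 ± 0.24 (adjusted p = 0.853). The keratinocyte marker mean ranged from 4.54 to 9.09 in iMet and from 8.59 to 10.64 in iHRAS*, and after adding it and the endothelial mean to the fit the difference between the models was -1.05 (adjusted p = 0.109). The choline carrier genes Slc44a1 (-0.79, adjusted p = 0.00347) and Slc44a2 (-0.72, adjusted p = 0.0201) were lower in iMet as well. Folate carriers were lower in both models than in melanocytes: Slc19a1, the reduced folate carrier, by differences of -0.47 in iMet (adjusted p = 0.0288) and -0.74 in iHRAS* (adjusted p = 0.00175), and Slc46a1, the proton-coupled folate carrier, by -1.21 and -0.97 (adjusted p = 0.000726 and 0.00308), with tumour signals at or near the dim level. The Slc19a1 call in iMet was lost without iMet 3 or without any 1 of melanocyte arrays 1, 2 and 4 (adjusted p from 0.0559 to 0.0834).

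Of the carriers inside the cell, Slc35a1, which brings CMP-sialic acid into the Golgi for the sialylation of glycans, was lowest at 8.53, had a median of 8.67 and was highest at 8.97 in iMet, against 9.35, 9.78 and 10.63 in iHRAS*, and gave 8.64, 8.18, 9.18 and 8.48 in melanocytes. All iHRAS* arrays lay above all arrays of the other groups. Slc35a1 differed by -1.14 ± 0.21 between iMet and iHRAS* (SE, limma, adjusted p = 0.0029) and by 1.24 ± 0.24 between iHRAS* and melanocytes (adjusted p = 0.00121). It was the only nucleotide sugar carrier of 5 called between the models (20%, against 20.9% of all genes). Against melanocytes Slc35a2 and Slc35a4 were lower in iMet, and Slc35a4 and Slc35a5 in iHRAS* (40% each, against 18.7% and 21.3% of all genes). Each of these lower calls was lost without melanocyte arrays 1 and 3 (adjusted p from 0.0538 to 0.283). In iHRAS* Slc35a1 was the 1 higher (20%, against 18.1%).

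Of 33 mitochondrial carriers 26 were tested between the models, of which 1 was higher and 3 lower in iMet (15.4% either way, against 20.9% of all genes), with differences between -0.56 and 0.31 among those called. The lower ones were Slc25a10, the dicarboxylate carrier, Slc25a20, the carnitine and acylcarnitine carrier, and Slc25a36, a pyrimidine nucleotide carrier. On the values as deposited the adjusted p was 0.105 for Slc25a10 and 0.36 for Slc25a36. The higher one was Slc25a4, the ADP/ATP carrier of heart and muscle (0.31, adjusted p = 0.0356), whose adjusted p was over the threshold without any 1 of 7 arrays and 0.54 with arrays centred on their medians. Against melanocytes the ornithine carrier gene Slc25a15, part of the urea cycle, was the largest lower one: it averaged 6.30 ± 0.27 in iMet and 6.91 ± 0.61 in iHRAS* (SD, n = 6 each), against 8.29 ± 0.27 in melanocytes (n = 4; differences -1.99 and -1.38, adjusted p = 6.67e-05 and 0.00112). Slc25a37, the iron importer of mitochondria used for haem synthesis in red cell precursors, was the largest higher one, at 1.92 in iMet (adjusted p = 0.000472) and 1.40 in iHRAS* (adjusted p = 0.00398; 0.0848 without melanocyte arrays 2 and 4). Slc25a37 was not called between the tumour models. Alas2, given above, had its highest mean in iMet, while Hba-a1 and Epb42, other red cell genes, were below the dim level on every array. Whether red cells carry any of the Slc25a37 signal was not tested.

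The taurine carrier gene Slc6a6, of the neurotransmitter class, was lower than in melanocytes in iMet (-1.42 ± 0.24, adjusted p = 0.000474) and in iHRAS* (-0.92 ± 0.24, adjusted p = 0.00785, and 0.0735 without melanocyte arrays 1 and 3). Its melanocyte arrays gave 11.88, 11.82, 11.56 and 11.09. Slc66a2, which was placed in no substrate class, was lower in iMet than in melanocytes (-1.08, adjusted p = 0.00938) but not without melanocyte arrays 2 and 4 (-0.57, adjusted p = 0.212). The vesicular proton pump, which powers carriers of lysosomes and vesicles, had 0 higher and 4 lower of 15 tested subunits between iMet and iHRAS*, 1 higher and 8 lower between iMet and melanocytes, and 1 higher and 5 lower between iHRAS* and melanocytes. The shares lower were 26.7%, 53.3% and 33.3%, against 9.7%, 18.7% and 21.3% of all genes.

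Set against melanocytes as a whole, 21 of 133 carriers were higher in iMet (15.8%, against 16.4% of all 8651 genes tested) and 32 lower (24.1%, against 18.7%). In iHRAS*, 31 were higher (23.3%, against 18.1%) and 22 lower (16.5%, against 21.3%). Called either way were 53 carriers in each model, beside 35.1% and 39.3% of all genes. The medians of the differences were -0.19 in iMet and 0.05 in iHRAS*, beside -0.08 and -0.09 over all genes; these comparisons share the melanocyte arrays. The ranges did not overlap for 40 carriers between iMet and melanocytes and for 33 between iHRAS* and melanocytes, 30.1% and 24.8% of those tested, against 27.7% and 25.3% of all genes. The counts depended on the scaling, as did those of all genes. The values as deposited gave 23 higher and 20 lower in iMet (17.3% and 15%, against 17.6% and 13.8% of all genes). In iHRAS* they gave 27 higher and 29 lower (20.3% and 21.8%, against 15.4% and 27.9%). Arrays centred on their medians gave 19 and 40 in iMet (14.4% and 30.3%, against 13.6% and 26.7%). In iHRAS* they gave 28 and 32 (21.2% and 24.2%, against 15.4% and 29.7%). The median of all genes lay between -0.23 and 0.01 under these scalings. The 32 lower calls in iMet were 20 without melanocyte array 1 and 20 without arrays 1 and 3. With the same 2 covariates 0 carriers were called higher and 0 lower in iMet by limma, where 21 had an unadjusted p under 0.05. The shares of all genes called were 0.289% and 0.139%. In iHRAS* Slc7a7 stayed higher and Slc7a6 lower, beside 0.636% and 0.301% of all genes. The endothelial marker means of melanocytes (up to 5.04) lay below those of all iMet (from 7.22) and iHRAS* (from 6.67) arrays. This fit therefore cannot well separate the covariates from the groups. Of the named calls lost, 15 of 36 in iMet and 21 of 38 in iHRAS* had a difference at least as large as without the covariates.

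**Figure D5:**
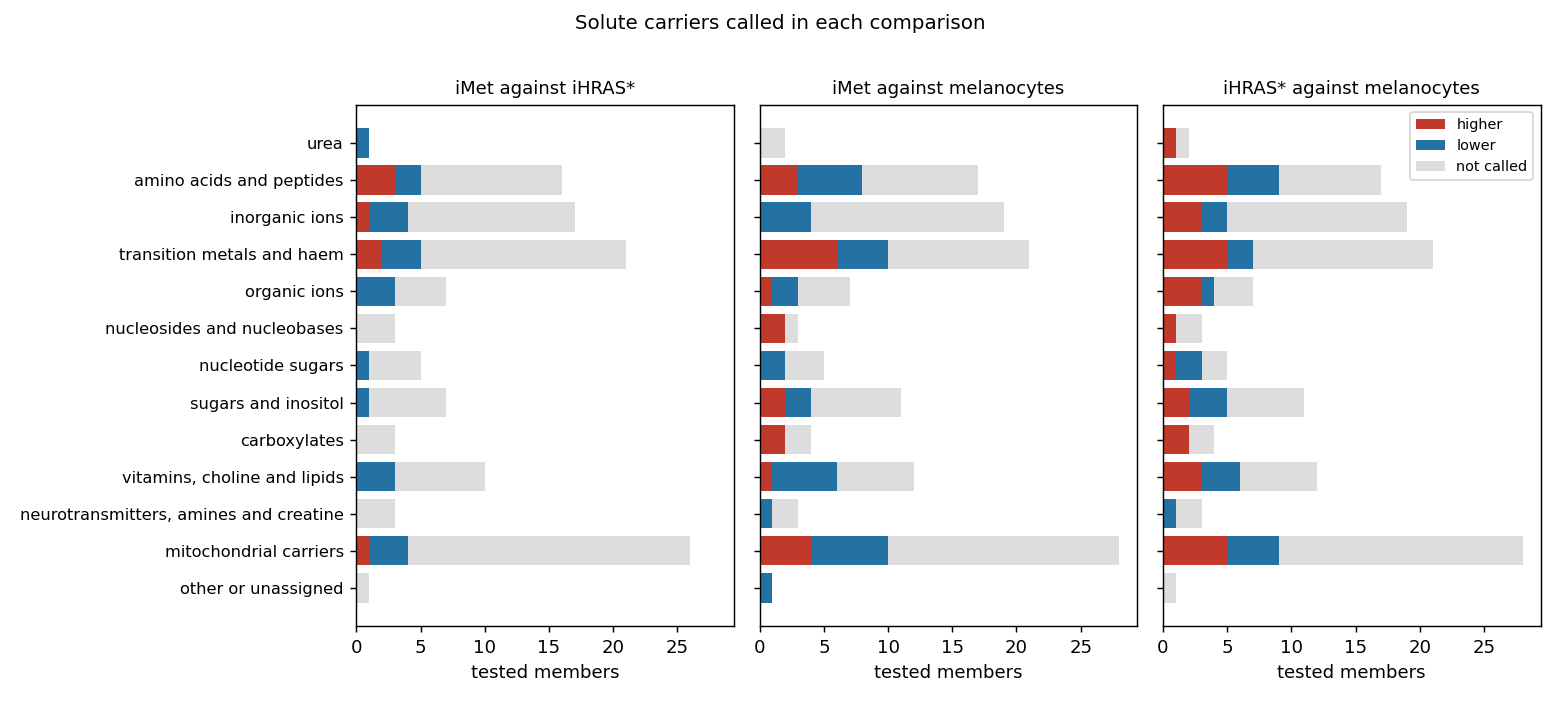
Number of tested carriers (horizontal axis) called higher, called lower or not called in each substrate class, in the comparison of iMet with iHRAS* and of each model with melanocytes. Organic ion carriers, for example, were 3 of 7 lower in iMet than in iHRAS* (42.9%, against 9.7% of all genes). In iHRAS* against melanocytes 3 of 7 were higher and 1 lower (42.9% and 14.3%, against 18.1% and 21.3% of all genes). Without melanocyte arrays 2 and 4 the higher calls of Slc22a23 and Slc22a17 were lost (limma, adjusted p = 0.727 and 0.0718).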

How the data were processed

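The deposited tables hold 1 log2 signal per probe set and array for 16 arrays. The sources used here do not say how the authors summarised or normalized these log2 values. The labels' protocols name Trizol and column purification of the RNA.

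Column medians ranged from 6.56 to 7.28, a spread above the limit of 0.3, so the arrays were quantile normalized (limma 3.58.1, R 4.3.3). Of 22690 probe sets, 64 controls were left out, and 20380 carried 1 symbol. Each of 12393 genes was read from the probe set with the highest mean. No detection calls were used: a gene was tested if its signal passed the 40th percentile (6.21) on 6 of the 12 tumour arrays, or on 4 of 16 for comparisons with melanocytes. limma (lmFit and eBayes, two-sided) was fitted on all genes that passed, with Benjamini-Hochberg adjustment over all of them and calls under 0.05. Every adjusted p in the text comes from limma. The number of arrays limits the precision. The procedure was tested on simulated data.

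Members and lists were chosen with earlier results of these data known. Named carriers are those with the largest non-overlapping differences in each comparison, up to 4 per substrate class by p, all tested urea, nucleoside and organic ion carriers, and the partners of Slc3a2 and of the lactate carriers. Slc11a1, Slc12a2, Slc15a2, Slc15a4, Slc25a20, Slc34a2, Slc38a2, Slc44a2 and Slc4a4 were added after their values were seen and were not refitted under the alternatives. Same-numbered arrays showed little common deviation, with correlations of -0.22 to 0.11 between iMet and iHRAS* (6 pairs). Against melanocytes (4 pairs) they were -0.07 to 0.06 for iMet and -0.05 to 0.10 for iHRAS*. Replicate numbers were therefore treated as names, though so few pairs cannot show that the numbers carry no batch. Alternatives changed the scaling, filter, probe set choice, arrays fitted, variance model, block, covariates and arrays left out.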

Additional observations from a re-analysis of the deposited data

Results flagged for a closer look

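Among 158 groups of 4 or 6 arrays of the named carriers, 7 held an array that stood apart from the rest of its group. Chance alone marks about 1 in 20 such groups. In iMet, Slc17a9 was 6.13 on array 2 (6.70 to 7.04 on the others), Slc6a17 was 6.13 on array 4 (6.44 to 6.59), Slc37a2 was 8.67 on array 4 (6.34 to 6.85) and Slc7a5 was 8.62 on array 5 (9.24 to 9.48). In iHRAS*, Slc24a3 was 7.49 on array 2 (6.17 to 6.59). In melanocytes, Slc29a1 was 9.15 on array 2 (7.56 to 7.80) and Slc1a5 was 6.33 on array 4 (7.04 to 7.14).

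Slc22a23 differed by -2.36 between iMet and iHRAS* and was called in opposite directions against melanocytes, at -1.35 in iMet and 1.02 in iHRAS*.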

How the results depend on the processing

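Between iMet and iHRAS* the 7 higher and 20 lower carriers became 12 and 10 on the values as deposited, 4 and 17 with arrays centred on their medians, 3 and 17 with the replicate number as a block, and 1 and 4 with the keratinocyte and endothelial markers as covariates. The shares of all genes moved too, to 22% higher and 5.48% lower as deposited and to 1.34% and 1.68% with the covariates. Leaving out 1 array gave 3 to 9 higher (3 without iMet 1, 4 without iMet 3, iMet 4 or iHRAS* 4) and 18 to 24 lower. Between iMet and melanocytes the 21 higher and 32 lower became 23 and 20 as deposited, 17 and 23 with the block, 0 and 0 with the covariates (0.289% and 0.139% of all genes), and 20 lower without melanocyte arrays 1 and 3. Leaving out 1 array gave 17 to 21 higher and 20 to 31 lower (20 without melanocyte 1). Between iHRAS* and melanocytes the 31 higher and 22 lower became 29 and 21 with the block and 1 and 1 with the covariates (0.636% and 0.301% of all genes), and leaving out 1 array gave 27 to 32 and 19 to 25. Of 97 calls of named carriers, 90 were lost with the covariates (2 of them turned in direction), 26 of 76 without melanocyte arrays 2 and 4, 16 on the values as deposited and 13 with the block. The direction turned only with the covariates, between iMet and melanocytes, for Slc39a14 (-0.52) and Slc25a39 (0.0752). The cause was not tested. Signals below the dim level give bounds only.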
